A study of Mus musculus with 11 samples.

Results

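The 8 genes described here encode transcription factors of fat cell formation: Pparg, Cebpa, Cebpb, Cebpd, Zfp423, Ebf1, Ebf2 and Klf4. They were chosen by symbol as known regulators of adipogenesis, and all 8 matched 1 row each among the 23507 gene rows of the count table. Cells came from the stromal vascular fraction (what remains once adipocytes are removed) of perigonadal white adipose tissue (pgWAT, the fat depot beside the gonads) of Pdgfrb-GFP reporter mice on a C57BL6/J background, in which Pdgfrb-expressing cells are green. The table held 3261 single cells sequenced with Smart-seq2, a full-length protocol in which reads, not molecules, are counted. They came from 11 plates and 7 mouse ids: males 1, 4 and 8, and females 2, 3, 5 and 6/7, the last being a pool of 2 animals counted here as 1 replicate. No treatment and no ages were given in the labels.

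Plates were sorted by the reporter in all mice, also by CD31 (the endothelial surface protein encoded by Pecam1) in mice 1, 2, 6/7 and 8 and, in mouse 2 alone, by DPP4, which some adipose stem cells (ASC) carry on their surface. The median number of reads per cell was 397818 to 801537 by mouse. In ASC-like cells, 9 ribosomal RNA features took 66.9% of the reads in mouse 1, 58.5% in mouse 8, 54.1% in mouse 5 and 29.9% to 37.8% in the other mice, so levels are given as CPM, the reads of a gene per 1000000 reads outside these features, from the counts summed per mouse and class. No cell had the same counts as another.

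Cell classes were rebuilt by clustering without the 8 genes, and each takes its name from markers only. The classes used below are 2248 ASC-like cells (Pdgfra read in 99.2% of them, Dcn in every cell), 568 endothelial (EC)-like cells (Pecam1 in all, Cdh5 in 98.1%), 137 macrophage-like cells of mice 1 and 5, and 60 pericyte-like and 41 vascular smooth muscle (VSMC)-like cells, which together are called mural-like. ASC-like cells were divided by marker scores within each mouse into 807 ASC1a-like (Col15a1, G0s2, Cxcl14), 667 ASC1b-like (Clec11a, Fmo2, F3) and 774 ASC2-like cells (Dpp4, Cd55, Arl4d, Pi16). They divide a continuous score, since 488 ASC-like cells (21.7%) lay within 0.25 of a boundary. The ASC1a, ASC1b and ASC2 names follow the study's use, in which ASC2 stands for less and ASC1a for more committed precursors. The cells under these names differ from the study's, since here a name is relative to the other ASC-like cells of the same mouse. Mouse 1 gave 89 ASC1a-like, 66 ASC1b-like and 89 ASC2-like cells, and mouse 4 gave 126, 116 and 121. In the study's clusters, mouse 1 had no ASC1a cell and mouse 4 almost no ASC2 cell. Orders of subtypes within a mouse are thus between relative groups.

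Adipogenesis is driven by a cascade of transcription factors. C/EBPβ and C/EBPδ (genes Cebpb and Cebpd) are induced first after an adipogenic stimulus, with KLF4 acting upstream of Cebpb, and they induce PPARγ (Pparg) and C/EBPα (Cebpa), which maintain each other and switch on the lipid genes of the adipocyte. ZFP423, EBF1 and EBF2 act earlier, in the commitment of precursors, and promote Pparg expression. PPARγ is also expressed in the capillary endothelium of fat, where it controls fatty acid uptake, and C/EBPα and C/EBPβ act in myeloid cells.

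The positions below are those of GRCm38. Pparg lies on chromosome 6 (bases 115360951 to 115490399, plus strand), Cebpa on 7 (35119293 to 35121928, plus), Cebpb on 2 (167688915 to 167690418, plus) and Cebpd on 16 (15887286 to 15891031, plus). Zfp423 lies on chromosome 8 (87661810 to 87959595, minus), Ebf1 on 11 (44617317 to 45008091, plus), Ebf2 on 14 (67233292 to 67430918, plus) and Klf4 on 4 (55527143 to 55532466, minus). Counts are per gene, so the isoforms of Pparg, which start at different promoters, were not separated. Exons of Pparg, Cebpa, Cebpb, Cebpd and Ebf2 overlap a gene on the opposite strand (for Cebpb and Cebpd the protein-coding genes Tmem189 and Spidr), and no source states that counting was stranded, so reads from the overlaps cannot be assigned with certainty. Of the 50-base stretches of each gene's exons, none was found in another gene, except 8 of Klf4 (0.263%) that also occur in Gm48640.

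The promoter windows show where the factors of the cascade could bind one another's genes. A C/EBP sequence, TTGCNNAA on either strand, was present in 2 of 10 windows of the 6 members with an entry in the RefSeq promoter table (GRCm38.p6, 300 bases each), against 10.8% of all 32851 windows. The palindromic EBF sequence, TCCC and GGGA with any 2 bases between them, was present in 0 of the 10 and in 0.904% of all windows. Both windows with a C/EBP match are shown for the 250 bases before the start, with the matches in capitals.
Pparg, the third start of the table, chr6:115421816-115422065 (+): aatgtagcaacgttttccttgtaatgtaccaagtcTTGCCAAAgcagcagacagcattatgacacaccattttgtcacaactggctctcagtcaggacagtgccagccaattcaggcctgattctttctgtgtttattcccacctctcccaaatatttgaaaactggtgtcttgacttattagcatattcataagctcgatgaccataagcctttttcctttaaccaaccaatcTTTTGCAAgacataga
Zfp423, chr8:87959596-87959845 (-): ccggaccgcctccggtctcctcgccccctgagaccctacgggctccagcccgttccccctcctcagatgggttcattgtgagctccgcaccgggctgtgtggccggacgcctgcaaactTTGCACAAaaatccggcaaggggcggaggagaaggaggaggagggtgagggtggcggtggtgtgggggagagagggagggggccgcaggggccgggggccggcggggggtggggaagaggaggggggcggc
The matches of Pparg begin 215 and 16 bases before the start, and that of Zfp423 131 bases before it. The 300-base window of Zfp423 also holds TTGCATAA, at base 22 after the start and so outside the stretch shown. These are matches of letters and not measured binding.

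The first question was where in the stromal vascular fraction the 8 factors were expressed. Pparg, the master regulator of adipocyte differentiation, was highest in endothelial cells and not in the stem cells. In EC-like cells its level was 194.8 CPM in mouse 1, 225.5 in mouse 8, 392.1 in mouse 2, 352.3 in mouse 5 and 397.0 in mouse 6/7. In ASC-like cells of the same mice it was 7.23, 9.85, 37.5, 24.3 and 36.2 CPM. The classes did not overlap, and EC-like cells were above ASC-like cells within each of the 5 mice, by 10.5- to 26.9-fold. Such a sum joins the number of expressing cells and the level in each, which are given separately further on. Compared in edgeR's quasi-likelihood test with the mouse as a block, the log2 fold change of ASC-like over EC-like cells was −3.82 (SE 0.29, adjusted p = 0.000105), that is 14.1-fold lower in ASC-like cells.

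Ebf2, a factor of adipocyte precursor commitment, showed the opposite order. It lay at 0.490, 0.162, 0.281, 0.300 and 1.87 CPM in the EC-like cells of mice 1, 8, 2, 5 and 6/7, and at 126, 144, 196, 117 and 208 CPM in their ASC-like cells. EC-like cells were thus near 0 in each mouse, and the log2 fold change was 8.50 (SE 0.59, edgeR adjusted p = 7.56e-05). The early C/EBP factors were also higher in ASC-like cells. Cebpb lay at 1.50, 1.78, 28.1, 8.70 and 2.81 CPM in EC-like cells of mice 1, 8, 2, 5 and 6/7 and at 13.4, 43.6, 62.4, 73.0 and 25.9 CPM in ASC-like cells. The log2 fold change of Cebpb was 3.19 (SE 0.57, edgeR adjusted p = 0.00469). Cebpd, which had the highest level of the 8 per kilobase of exon in ASC-like cells (157 ± 68.4 CPM per kb, SD, n = 7), lay at 590 ± 256 CPM there and at 111 ± 88.8 CPM in EC-like cells (n = 5). Its ranges came close in mouse 5 (305 against 257 CPM), and its log2 fold change was 2.90 (SE 0.59, edgeR adjusted p = 0.00881).

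The other 4 members did not pass the test between ASC-like and EC-like cells. Cebpa, the partner of PPARγ in the adipocyte, had a mean of 14.8 ± 5.53 CPM in ASC-like cells (n = 7) and 18.9 ± 15.9 CPM in EC-like cells (n = 5), with no read in the EC-like cells of mouse 8. Zfp423 lay at 17.1 ± 6.02 and 23.5 ± 27.3 CPM, its EC-like values running from 0 in mouse 8 to 69.2 CPM in mouse 5. Ebf1 was at 119 ± 36.02 and 164 ± 76.3 CPM, and Klf4, a factor also known from stem cell reprogramming and from endothelium, at 176 ± 43.3 and 138 ± 55.7 CPM. The edgeR log2 fold changes of these 4 genes ran from −0.22 (Ebf1) to 0.87 (Zfp423), with SEs of 0.28 to 1.16. In all, 3 members were higher in ASC-like cells, beside 16.0% of the 12209 genes tested, and 1 was higher in EC-like cells, beside 11.3%.

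**Figure D1:**
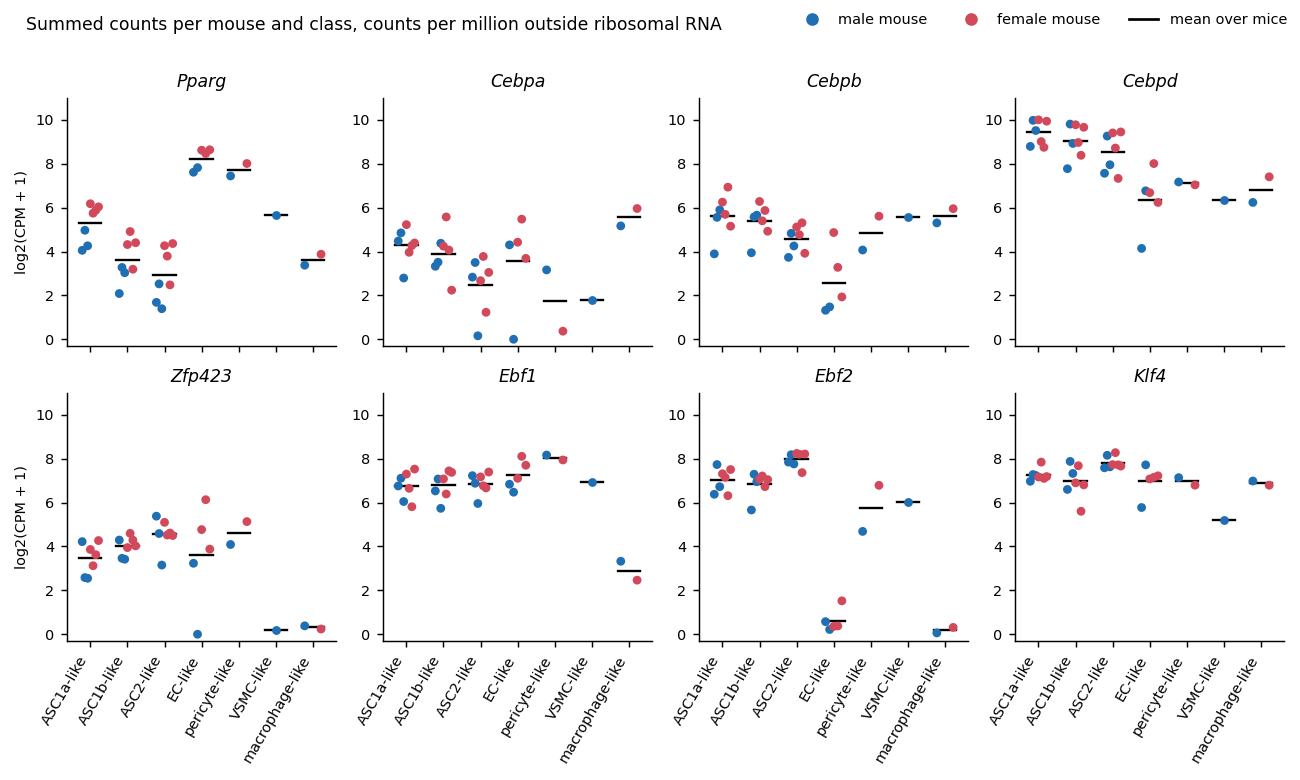
Level of each gene by cell class, as log2(CPM + 1) of the counts summed per mouse (vertical axis), where a mouse gave at least 10 such cells; blue points are male and red points female mice, and the line is the mean over mice. Pparg lies highest in EC-like cells (194.8 to 397.0 CPM) and Ebf2 lies near 0 in EC-like and macrophage-like cells.

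EC-like cells also held reads of adipocyte genes. The summed level of 10 adipocyte markers, from Adipoq to Lipe, was 2817 to 6142 CPM in EC-like cells, with all 10 markers read in each mouse, and 46.6 to 397 CPM in ASC-like cells. Some of these genes are also expressed by capillary endothelium, and the part of free adipocyte RNA in the Pparg level of EC-like cells was not tested. The 4 EC markers summed to 6082 to 12463 CPM in EC-like cells and to 5.40 to 41.5 CPM in ASC-like cells. Of 20 targets of PPARγ, 17 were higher in EC-like cells, among them Aqp7 (log2 fold change −10.27), Adipoq (−10.12) and Cd36 (−8.96). Lpl, the lipoprotein lipase that releases fatty acids in capillaries, was the only one higher in ASC-like cells. The median log2 fold change of the 20 was −3.86, beside 0.19 over all genes tested, and 5 of the 20 (Adipoq, Cidec, Lipe, Pck1 and Plin1) are also on the adipocyte list.

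Lists of other adipogenic regulators were counted beside the same 16.0% and 11.3% of all genes. Of 19 adipogenic activators tested, 3 were higher in ASC-like cells (Nfia, Nr1h3 and Tcf7l1) and 3 in EC-like cells, Prdm16 (log2 fold change −4.73), Ebf3 (−2.20) and Cebpg (−1.62), shares near those of all genes. Of 18 adipogenic repressors tested, 7 were higher in ASC-like cells, with Twist1 (9.85), Sox9 (8.24) and Twist2 (6.80) changing most, and 2 were higher in EC-like cells, Gata2 and Hes1. Of 17 immediate early genes, which respond to tissue dissociation, 7 were higher in ASC-like cells, led by Myc (4.00), and 2 in EC-like cells.

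Mural-like cells were compared in mice 1 and 2 only, the mice with at least 10 of them. Pparg lay at 173.2 and 256.9 CPM in the pericyte-like cells of mice 1 and 2, above the ASC-like cells of both mice (7.23 and 37.5 CPM), and at 49.8 CPM in the VSMC-like cells of mouse 1. Markers of endothelium moved with this: the 4 EC markers summed to 2553 and 7624 CPM in the pericyte-like cells. In the 51 pericyte-like cells with over 10 CPM of 5 EC genes, Pparg was at 224.6 CPM with a read in 34 cells, and in the 9 cells at or under 10 CPM it was at 53.0 CPM, with all its reads in 1 cell. Over the 32 mural-like cells at or under this limit, Pparg was at 18.2 CPM, with a read in 3 cells.

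The other members in the mural-like cells of mice 1 and 2 were as follows. These were 44 pericyte-like and 38 VSMC-like cells in mouse 1 but 13 pericyte-like cells alone in mouse 2, so the mice stand for unlike mixtures. Ebf1 was at 209 and 245 CPM, with a read in 29 of the 32 cells low in EC genes. Ebf2 was at 43.0 and 109.5 CPM, which is below the ASC-like cells of the same mice (126 and 196 CPM) but far above EC-like cells. In mouse 1 Ebf2 was at 24.8 CPM in pericyte-like and 63.3 CPM in VSMC-like cells. Cebpa was low at 5.36 and 0.292 CPM, and Cebpd, at 113 and 131 CPM, was below ASC-like cells (286 and 865 CPM). Cebpb (30.2 and 47.8 CPM) and Zfp423 (8.52 and 34.1) overlapped the range of ASC-like cells. Klf4 (90.7 and 110 CPM) was below that range, in which the lowest mouse was at 137 CPM. In mouse 1, however, Klf4 was at 139.9 CPM in pericyte-like cells, inside the range, and at 35.8 CPM in VSMC-like cells.

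No member passed the edgeR quasi-likelihood test between ASC-like and mural-like cells, in which 0.0% of 9701 genes did (0 genes, 1373 at an unadjusted p under 0.05, and 1395 in DESeq2). The log2 fold change of Pparg was −3.29 (SE 0.62, adjusted p = 0.131; 1.43e-05 in DESeq2), and that of Cebpd 2.13 (SE 0.62, adjusted p = 0.254; 0.00642 in DESeq2). With 0 genes called, the lack of calls says nothing about the members. The comparison with macrophage-like cells, also of 2 mice, called 2035 of 8036 genes. The mural-like sums joined pericyte-like and VSMC-like cells in mouse 1 but held pericyte-like cells alone in mouse 2. What kept the mural-like comparison from giving calls was not tested.

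Macrophage-like cells, from mice 1 and 5, held little of the EBF factors and Zfp423. Ebf2 was at 0.0434 and 0.241 CPM in the macrophage-like cells of mice 1 and 5, against 126 and 117 CPM in their ASC-like cells (log2 fold change 9.76, SE 0.81, edgeR adjusted p = 0.000452). Ebf1 was at 9.04 and 4.52 CPM, against 118 and 106 CPM (log2 fold change 4.03, SE 0.47, edgeR adjusted p = 0.00158). Zfp423 was at 0.304 and 0.181 CPM and Pparg at 9.38 and 13.7 CPM, and both were below the count limit of this test.

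Cebpa was higher in macrophage-like cells, at 34.9 and 61.3 CPM against 12.3 and 11.5 CPM in ASC-like cells of mice 1 and 5. Its log2 fold change was −2.05 (SE 0.54, edgeR adjusted p = 0.0364), and the call was lost in 6 of 11 alternatives, with the adjusted p reaching 0.196 when cells with markers of another class were left out. Cebpb (38.5 and 60.9 CPM), Cebpd (74.4 and 168) and Klf4 (126 and 110) did not pass the test. Thus 2 members were higher in ASC-like cells, beside 13.4% of 8036 genes, and 1 in macrophage-like cells, beside 12.0%. The ASC-like sums are shared by the comparisons with EC-like, mural-like and macrophage-like cells.

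The second question was how the factors differed between the ASC subtypes, for which all 7 mice gave sums and all 3 subtypes entered 1 fit. The late factors Pparg and Cebpa and the early factors Cebpb and Cebpd were higher in ASC1a-like than in ASC2-like cells, and Ebf2 and Zfp423 were lower. That is 4 members higher in ASC1a-like cells, beside 4.51% of 11144 genes tested, and 2 higher in ASC2-like cells, beside 4.93%. None of the 8 genes was used to define the subtypes, but G0s2, an ASC1a marker, is a known target of PPARγ.

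Pparg had the largest difference among members. Its level in ASC1a-like cells had a low of 15.6, a median of 52.7 and a high of 71.4 CPM over 7 mice. In ASC1b-like cells these values were 3.24, 8.67 and 29.1 CPM, and in ASC2-like cells 1.63, 4.76 and 19.6 CPM. The ranges overlapped between mice, but within each mouse ASC1a-like cells were highest, 3.30- to 12.7-fold above ASC2-like cells and 1.81- to 7.11-fold above ASC1b-like cells. Even in ASC1a-like cells Pparg stayed below EC-like cells in 5 of 5 mice, by 5.49- to 12.5-fold. The log2 fold change of ASC1a-like over ASC2-like cells was 2.64 (SE 0.28, edgeR adjusted p = 6.98e-06). It was 1.78 over ASC1b-like cells (SE 0.28, adjusted p = 0.00273), and when G0s2 was left out of the ASC1a score this value was 1.42 and no longer passed (adjusted p = 0.142). For ASC1b-like against ASC2-like cells it was 0.86 (SE 0.27, adjusted p = 0.0635; 0.0246 in DESeq2).

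The order of the subtypes was the same in cells low in endothelial and adipocyte reads. Over cells at or under 10 CPM of EC genes and 100 CPM of the adipocyte list, Pparg was at 53.0 CPM in 517 ASC1a-like, 14.6 CPM in 455 ASC1b-like and 13.4 CPM in 552 ASC2-like cells, and ASC1a-like cells were highest in each of the 6 mice with at least 10 such cells of each subtype. Over all cells these values were 53.4, 16.0 and 12.9 CPM. The summed adipocyte list was higher in ASC1a-like than in ASC2-like cells in 7 of 7 mice (median ratio 1.50), and the EC list in 2 of 7.

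Cebpa, which had a level of 20.6 ± 9.66 CPM in ASC1a-like, 17.6 ± 13.97 in ASC1b-like and 6.18 ± 4.50 in ASC2-like cells (SD, n = 7), was higher in ASC1a-like than in ASC2-like cells in 7 of 7 mice. Its log2 fold change was 2.01 (SE 0.62, edgeR adjusted p = 0.0488), a call just under the threshold that was lost in 13 of 19 alternatives, including the leaving out of any mouse but mouse 8 (adjusted p 0.0552 to 0.143 in those 6). In ASC1b-like against ASC2-like cells Cebpa had a similar difference that did not pass (1.83, SE 0.66, adjusted p = 0.110).

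The early factors followed the same order with smaller differences. Cebpb lay at 57.2 ± 34.1 CPM in ASC1a-like, 45.1 ± 19.9 in ASC1b-like and 24.3 ± 9.94 in ASC2-like cells, and both ASC1 subtypes were above ASC2-like cells in 7 of 7 mice. The log2 fold changes over ASC2-like cells were 1.16 for ASC1a-like (SE 0.18, edgeR adjusted p = 0.000368) and 0.93 for ASC1b-like cells (SE 0.18, adjusted p = 0.00273). Cebpd lay at 733 ± 273, 588 ± 273 and 429 ± 235 CPM, again in this order within each of the 7 mice. Its log2 fold changes over ASC2-like cells were 0.95 (SE 0.14, edgeR adjusted p = 0.000169) and 0.59 (SE 0.14, adjusted p = 0.0104). Neither gene passed between ASC1a-like and ASC1b-like cells.

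Immediate early genes moved with these 2 factors. Of 17 such genes, 10 were higher in ASC1a-like than in ASC2-like cells, Fosb (log2 fold change 1.23), Zfp36 (1.20) and Jun (1.08) most, and 0 were lower. Likewise 10 were higher in ASC1b-like than in ASC2-like cells, and their summed level was higher in both ASC1 subtypes in 7 of 7 mice (median ratios 1.38 and 1.44). Cebpb and Cebpd are themselves induced by stress, and the part of the dissociation response in their differences was not tested.

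The commitment factors Zfp423 and Ebf2 and the factor Klf4 had their highest mean levels in ASC2-like cells. Ebf2 lay at 137 ± 50.7 CPM in ASC1a-like, 121 ± 35.4 in ASC1b-like and 256 ± 53.3 in ASC2-like cells, with ASC2-like cells highest in 7 of 7 mice. The log2 fold changes were −0.91 for ASC1a-like (SE 0.15, edgeR adjusted p = 0.000513) and −1.03 for ASC1b-like cells (SE 0.15, adjusted p = 0.000242). Zfp423 lay at 11.2 ± 5.61, 15.7 ± 4.89 and 24.6 ± 10.3 CPM. It was lower in ASC1a-like than in ASC2-like cells in 7 of 7 mice, with a log2 fold change of −1.11 (SE 0.26, edgeR adjusted p = 0.00956) that was −0.67 and no longer passed with ASC1a scored without G0s2 (adjusted p = 0.479). Without mouse as a block (adjusted p = 0.0726) and with subtypes scored over all mice together (0.172) it did not pass either. Against ASC1b-like cells Zfp423 was higher in ASC2-like cells in 5 of 7 mice and did not pass (−0.48, SE 0.26, edgeR adjusted p = 0.341).

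Klf4 lay at 155 ± 34.2 CPM in ASC1a-like, 139 ± 64.7 in ASC1b-like and 229 ± 47.1 in ASC2-like cells, and ASC2-like cells were highest in each of the 7 mice. Its log2 fold change passed for ASC1b-like cells (−0.72, SE 0.18, edgeR adjusted p = 0.0176), though not without mouse 1 (adjusted p = 0.0540), mouse 2 (0.0585) or mouse 6/7 (0.0593). For ASC1a-like cells it did not pass (−0.51, SE 0.18, adjusted p = 0.0865), and it did without mouse 5 (adjusted p = 0.0156), with totals outside ribosomal RNA as the scale (0.0487) and in DESeq2 (0.0295). Ebf1 was nearly level, at 115 ± 47.1, 119 ± 44.9 and 121 ± 35.5 CPM in ASC1a-like, ASC1b-like and ASC2-like cells, with log2 fold changes of −0.03 and 0.05 against ASC2-like cells (SE 0.19 each).

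Against ASC2-like cells, 2 members (Cebpb and Cebpd) were thus higher in ASC1b-like cells, beside 4.27% of genes, and 2 (Ebf2 and Klf4) were lower, beside 3.67%. Both comparisons share the ASC2-like sums. Between ASC1a-like and ASC1b-like cells, Pparg was the only member to pass, beside 0.467% of genes higher in ASC1a-like and 0.655% higher in ASC1b-like cells. With totals outside ribosomal RNA as the scale, the share of calls that were higher in ASC1b-like than in ASC2-like cells moved from 53.8% to 38.7%. The members called kept their sign.

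**Figure D2:**
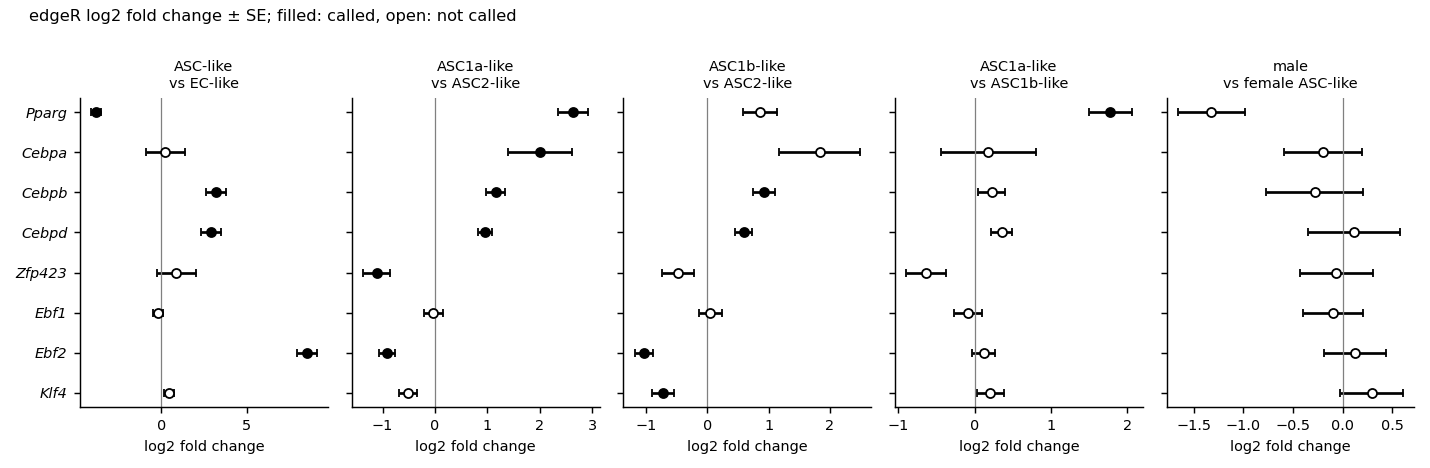
edgeR log2 fold change (horizontal axis, first named group minus second) with its SE for the 8 genes in 5 comparisons; filled points passed the threshold and open points did not. Pparg is at −3.82 in ASC-like against EC-like cells and at 2.64 in ASC1a-like against ASC2-like cells, and no point is filled between the sexes.

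Of the genes around these factors, 5 of 14 PPARγ targets tested were higher in ASC1a-like than in ASC2-like cells and 0 were lower. They were Plin4 (log2 fold change 4.45), Cd36 (3.30) and Fabp4 (2.90), which handle lipid droplets and fatty acids, and Lpl and Plin2. Over ASC1b-like cells 4 of the 14 were higher, among them Cd36 (3.07) and Fabp4 (1.80), and in ASC1b-like against ASC2-like cells only Lpl was (0.90). The median log2 fold change of the 14 was 0.74, 0.40 and 0.31 in these comparisons, beside 0.01, 0.00 and 0.00 over all genes.

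Of 17 activators tested, Klf15 (1.47) and Nr1h3, the liver X receptor α (1.35), were higher in ASC1a-like than in ASC2-like cells, and Nr1h3 was also higher than in ASC1b-like cells (0.93). In ASC1b-like against ASC2-like cells 1 activator was higher, Id2 (0.93), and 1 lower, Zbtb16 (−0.88), near the 4.27% and 3.67% of all genes. Of 18 repressors tested, 4 were higher in ASC1a-like than in ASC2-like cells, with Sox9 (1.53) leading, and 4 were lower, with Irf4 (−4.87) and Klf3 (−1.01) leading. The repressors Sox9 (1.04), Nr2f2 (1.01) and Twist2 were higher in ASC1b-like than in ASC2-like cells, and Irf4 (−3.63), Klf2 and Klf3 were lower.

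The third question was whether the sexes differed. Pparg was lower in male ASC-like cells, but not past the threshold. Its level was 7.23, 14.8 and 9.85 CPM in males 1, 4 and 8, and 37.5, 31.7, 24.3 and 36.2 CPM in females 2, 3, 5 and 6/7, so that all males were below all females. The log2 fold change of male over female cells was −1.32 (SE 0.34, edgeR adjusted p = 0.0779), a 2.50-fold difference beside the limits of 0.05 and 2.6-fold. With totals outside ribosomal RNA as the scale, Pparg passed (−1.61, edgeR adjusted p = 0.0433). The median of all genes was then −0.24, beside 0.04 in the main fit. Pparg also passed with cells classed by their own markers (−1.81, edgeR adjusted p = 0.0478). Over all 21 alternatives, in edgeR or DESeq2, its adjusted p ran from 0.00985 to 0.342. Only the 2 named passed both limits, so the lowest adjusted p came with a difference short of 2.6-fold.

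Ribosomal RNA features took 66.9%, 31.7% and 58.5% of the reads of ASC-like cells in males 1, 4 and 8 and 29.9% to 54.1% in females, and their part in the Pparg difference was not tested. The other 7 members overlapped between the sexes in ASC-like cells, with log2 fold changes from −0.28 (Cebpb) to 0.29 (Klf4). No member passed, beside 2.24% of 11819 genes, and the sexes did not overlap in 1 of 8 members, beside 20.4% of genes. In this comparison the split of calls depended on the scale: 69.4% of them were higher in males, 50.5% with totals outside ribosomal RNA and 28.2% with library totals, under which the median of all genes was −0.60.

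In EC-like cells Pparg was again lower in males, at 194.8 and 225.5 CPM against 392.1, 352.3 and 397.0 CPM, but the log2 fold change was −0.62 (SE 0.41, edgeR adjusted p = 0.699). Zfp423 (8.42 and 0 against 26.3, 69.2 and 13.7 CPM) and Ebf1 (113 and 88.0 against 137, 275 and 208 CPM) did not overlap between the sexes either, and neither passed (adjusted p = 0.659 and 0.662). That is 3 of the 6 members tested, beside 28.3% of 8169 genes. No member passed in EC-like cells, beside 0.049% of genes (4 genes, 614 at an unadjusted p under 0.05, and 111 in DESeq2). Without mouse 1, Zfp423 passed (adjusted p = 0.0397), but then mouse 8, with no read, was the only male. In neither class did any tested gene of the activator, repressor, PPARγ target or immediate early lists pass between the sexes.

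The fourth question was in how many cells each factor was read. To compare classes, each cell was thinned to 150000 reads, which left out 10 of all cells. These reads include ribosomal RNA, so depth outside it was not equal between mice and classes. It took 63.9% and 53.5% of the reads in the macrophage-like cells of mice 1 and 5. The factors fell into a broad and a sparse set within ASC-like cells. Cebpd was read in 94.5% of ASC1a-like, 92.8% of ASC1b-like and 92.1% of ASC2-like cells. Ebf1 (81.8%, 74.9% and 79.6%), Klf4 (74.8%, 75.5% and 86.3%) and Ebf2 (69.6%, 65.2% and 83.9%) were read in most cells of each subtype. Cebpb was between the sets, at 54.8%, 53.9% and 41.5%.

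Pparg, Cebpa and Zfp423 were sparse. Pparg was read in 278 of 806 ASC1a-like cells (34.5%, exact 95% interval 31.2 to 37.9), in 18.2% of ASC1b-like and in 13.6% of ASC2-like cells. By mouse its share in ASC1a-like cells was 30.5 ± 11.9% (SD, n = 7). Cebpa was read in 25.1%, 18.6% and 10.1%, and Zfp423 in 11.8%, 14.3% and 25.3% of ASC1a-like, ASC1b-like and ASC2-like cells. These shares cover counting error only, and a cell without a read may still express the gene.

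In EC-like cells the shares were 58.9% for Pparg, 63.5% for Ebf1, 41.1% for Klf4, 27.4% for Cebpd, 10.6% for Cebpb, 9.56% for Cebpa, 6.90% for Zfp423 and 2.83% for Ebf2. In macrophage-like cells Cebpd (60.6%), Klf4 (58.4%), Cebpb (45.3%) and Cebpa (32.8%) were read most often, and Ebf2 (1.46%) and Zfp423 (2.92%) least. Reads of Ebf2 in EC-like and macrophage-like cells show the level reached where the gene's sum was near 0. Median reads per cell before thinning were 669609 in ASC-like, 517939 in EC-like and 661413 in macrophage-like cells. Unthinned, Pparg was read in 33.2% of ASC-like, 72.5% of EC-like and 32.8% of macrophage-like cells.

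**Figure D3:**
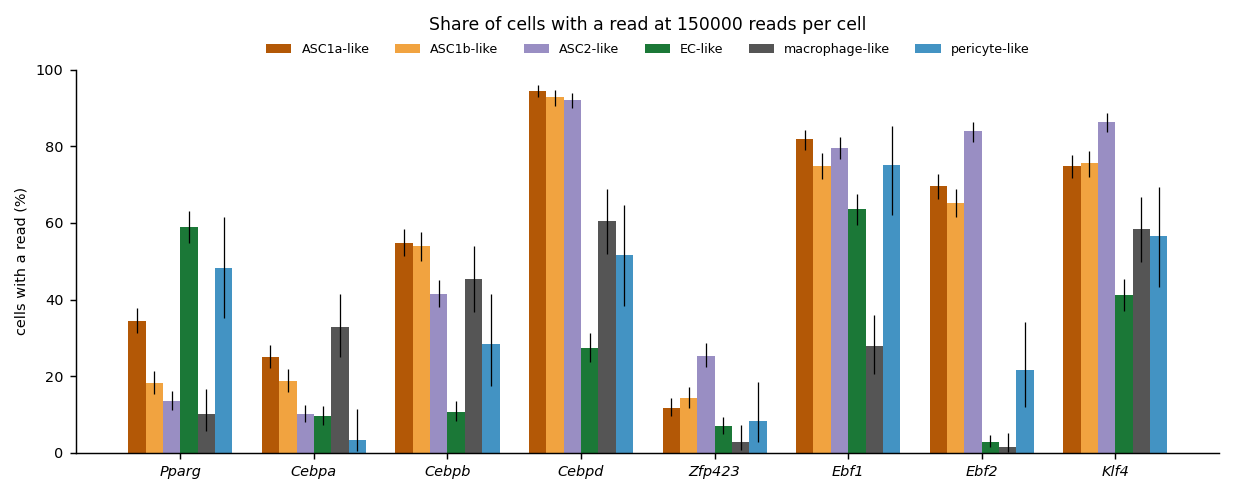
Percent of cells with a read of each gene after thinning to 150000 reads per cell, by class (bars, from 0), with exact 95% binomial intervals. Cebpd, Ebf1, Ebf2 and Klf4 are read in most ASC-like cells, Pparg, Cebpa and Zfp423 in few, and Pparg in 58.9% of EC-like cells.

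Sparse detection went with uneven levels. The tenth of ASC-like cells with the highest values held 81.8% of the summed per-cell CPM of Pparg, 90.01% of that of Cebpa and 92.04% of that of Zfp423, against 38.9% for Cebpd and 40.5% for Ebf2. In the 347 ASC1a-like cells with a read before thinning, the median Pparg level was 87.3 CPM. It was 5.06 CPM in 214 such ASC1b-like and 5.04 CPM in 185 such ASC2-like cells. These 2 values stand for a few reads per cell, near the floor of detection. At 5 reads or more after thinning, Pparg was read in 24.2% of ASC1a-like, 9.46% of ASC1b-like and 6.98% of ASC2-like cells. In the 412 EC-like cells with a read before thinning, the median Pparg level was 288 CPM. For Ebf2 the medians of cells with a read were 117, 91.8 and 245 CPM in ASC1a-like, ASC1b-like and ASC2-like cells.

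The last question was which factors were read in the same ASC-like cell. Over 2246 thinned ASC-like cells, the median cell held reads of 4 of the 8 factors. Only 3 cells, all ASC1a-like, held all 8, 4 cells held none, and 17.0% held 6 or more. This share was 21.8% in ASC1a-like, 14.1% in ASC1b-like and 14.5% in ASC2-like cells, against 0.177% in EC-like cells, where the median was 2. In macrophage-like cells the median was also 2 and no cell held 6 or more. Before thinning, the median number of genes detected was 5717.5 in ASC-like, 3595 in EC-like and 4989 in macrophage-like cells. The part of this richness in the counts of factors per cell was not tested.

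For the 28 pairs, the odds ratio of detection in the same cell was computed within each mouse and within 3 equal bins of the number of genes detected, to hold the richness of the cells level. Between each member and the about 9695 genes read in 10% to 90% of ASC-like cells, the median of this odds ratio was 1.00 to 1.03. The middle 90% of these values ran from 0.76 to 1.31 for Pparg, from 0.76 to 1.32 for Cebpa, from 0.79 to 1.36 for Zfp423 and from 0.71 to 1.55 for Cebpd. The late factors Pparg and Cebpa were read together in 117 cells (5.21%), beside 94.5 from their shares within each mouse. Their odds ratio was 1.42. Before the split into bins it was above 1 in 7 of 7 mice, though barely so in mouse 6/7 (1.0007). Once subtype was added to the split, the odds ratio over all mice was 1.11. Put as shares, Cebpa was read in 23.2% of cells with a Pparg read and in 16.5% of those without.

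Cebpa and Cebpb (odds ratio 1.55) and Cebpd and Ebf2 (1.37) were also above 1 in 7 of 7 mice, the lowest being at 1.01 and 1.03. These pairs kept odds ratios of 1.40 and 1.42 with subtype in the split, though 1.37 lies inside the range of other genes with Cebpd. Pparg and Ebf1 had 1.66, with 6 of 7 mice above 1, and Ebf1 was read in 87.3% of cells with a Pparg read and in 76.6% of those without. Cebpa and Cebpd had the highest ratio, 1.88, but with 5 of 7 mice above 1. The 5 lowest pairs all held Zfp423, led by 0.53 with Cebpd, 0.65 with Pparg and 0.73 with Cebpb, each above 1 in 1 of 7 mice, while Zfp423 with Klf4 and with Ebf2 was above 1. With subtype in the split, the pairs of Zfp423 with Cebpd, Pparg and Cebpb were at 0.53, 0.74 and 0.83. Those with Cebpa and Ebf1 were at 0.92 and 0.76. Its pairs with Klf4 and Ebf2 were then near 1, at 1.05 and 0.95. Zfp423 and Pparg were read together in 69 cells, beside 89.8 from their shares within each mouse. These are descriptions, since the cells share mice and plates. At a limit of 5 reads, Pparg and Cebpa were above 1 in 5 of 7 mice and Cebpd and Ebf2 still in 7 of 7. The low ratios of Zfp423 held there only in part, by the median over mice before the split. It was at 0.70 with Cebpd and 0.67 with Pparg (1 of 7 mice above 1 each), but at 0.94 with Cebpb (3 of 7). With Cebpa it was at 1.15 (4 of 7), with Ebf1 at 1.46 (5 of 7), with Ebf2 at 1.50 (6 of 7) and with Klf4 at 0.78 (2 of 7).

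**Figure D4:**
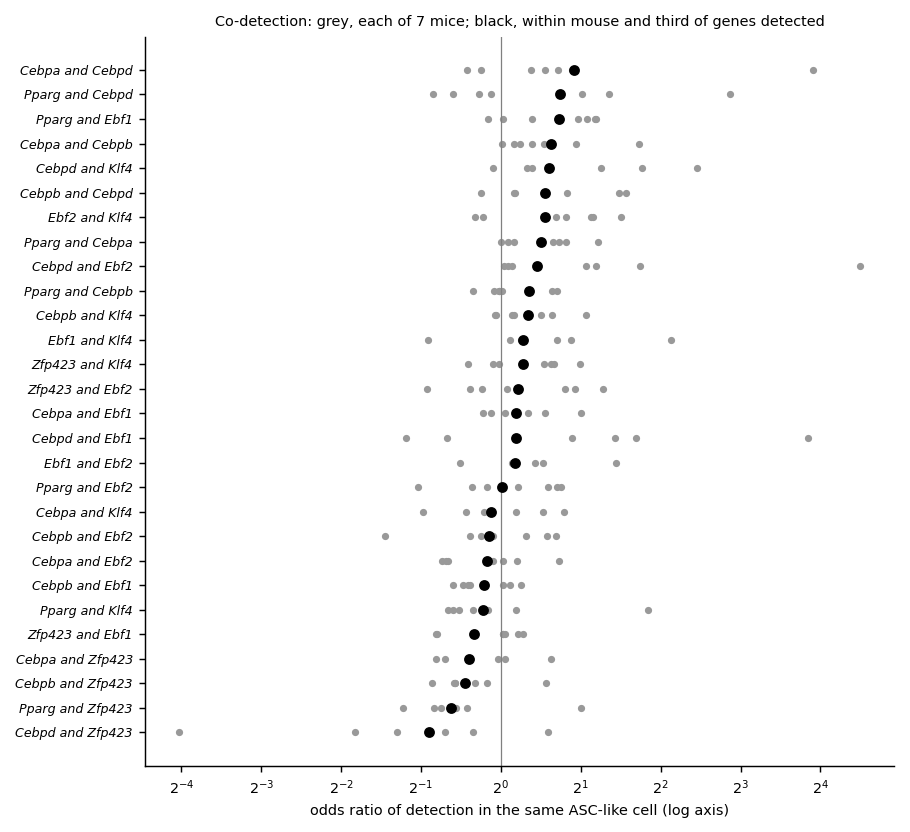
Odds ratio of detection in the same ASC-like cell (log axis) for the 28 pairs of genes, ordered by size; grey points are single mice and black points the value pooled within mice and bins of genes detected. The 5 lowest pairs all hold Zfp423, and the grey points of Pparg and Cebpa run from 1.0007, on the line at 1, to 2.32.

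The DPP4 sorts of mouse 2 gave a division of ASC by protein instead of by marker scores. They hold 379 DPP4-positive and 368 DPP4-negative ASC-like cells on 1 plate each, so there was no replicate, and intervals cover counting error only. The label of the DPP4-negative sort also names a CD31-negative gate, which that of the DPP4-positive sort does not, so DPP4, gate and plate cannot be told apart. ASC2-like cells made up 254 of the positive and 5 of the negative cells. Pparg was at 27.5 CPM (95% interval 26.8 to 28.3) in DPP4-positive and 46.0 CPM (45.1 to 46.9) in DPP4-negative cells. Cebpa (14.2 against 26.0 CPM) and Cebpb (42.8 against 79.2 CPM) were also lower in DPP4-positive cells, and Zfp423 (28.4 against 13.1 CPM) and Ebf2 (260 against 141 CPM) were higher. Klf4 (174 against 142 CPM), Cebpd (890 against 844) and Ebf1 (140 against 150) differed by 1.23-, 1.06- and 1.07-fold.

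The orders of Pparg, Cebpa, Cebpb, Zfp423, Ebf2 and Klf4 between the sorts were those between ASC1a-like and ASC2-like cells, which in mouse 2 come from the same cells, while Cebpd had the opposite order. For Pparg the sorts differed by 1.67-fold, and the subtypes of the same mouse stood at 71.4 CPM (ASC1a-like) and 18.2 CPM (ASC2-like). Within a subtype the order varied. Pparg was at 59.4 CPM in the 69 DPP4-positive and 74.8 CPM in the 191 DPP4-negative ASC1a-like cells, but at 31.8 and 15.4 CPM in the 56 positive and 172 negative ASC1b-like cells. Cebpa was higher in the DPP4-positive ASC1a-like cells (53.0 against 31.7 CPM). By share of cells, Pparg was read in 25.3% of DPP4-positive and 39.1% of DPP4-negative cells, Zfp423 in 25.1% and 13.6%, and Ebf2 in 86.5% and 76.1%.

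**Figure D5:**
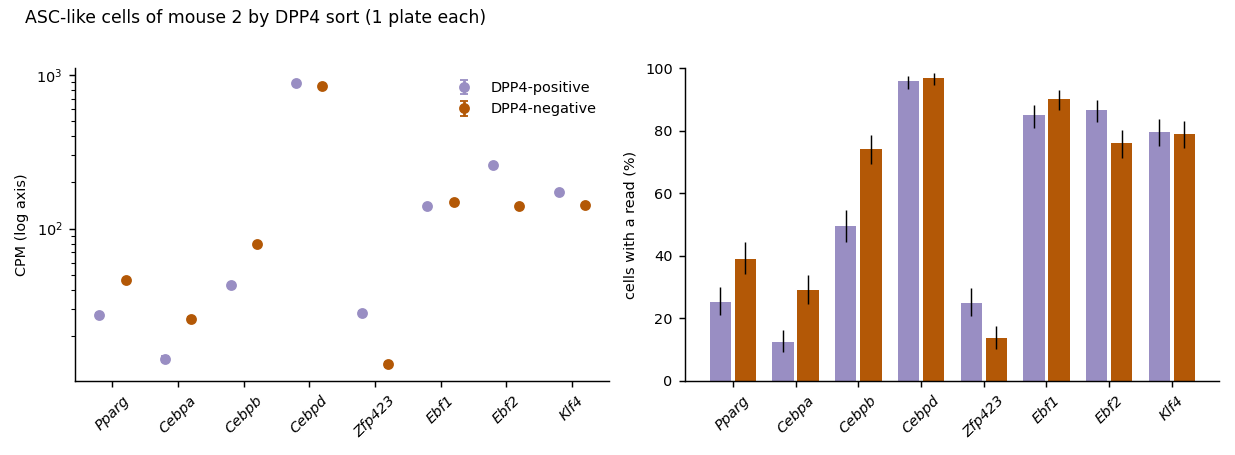
Level (left, CPM on a log axis, with counting intervals) and percent of cells with a read (right, with exact 95% intervals) of the 8 genes in ASC-like cells of mouse 2 by DPP4 sort, 1 plate each. Pparg, Cebpa and Cebpb lie lower and Zfp423 and Ebf2 higher in the DPP4-positive cells.

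Genes with the most similar pattern were taken over the 31 sums of a mouse and a class or subtype, by Pearson's correlation of log2(CPM + 1) among 11771 genes; the sums share mice, and these values are descriptions. Pparg was most like Cd300lg (0.91), Hrct1 (0.90) and Spaar (0.90). Ebf2 was most like Gm16567 (0.98), C1s1 (0.97) and Gm9780 (0.97), and Ebf1 most like Jam3 (0.89), Tpst1 (0.89) and Fzd4 (0.88). Cebpd was most like Vcam1 (0.88), Il6 (0.88) and Fst (0.86), and Cebpb most like Irs2 (0.79), Aldh2 (0.77) and Nfil3 (0.77). Zfp423 was most like Mr1 (0.85), Fez1 (0.84) and Eci2 (0.82). The highest values for Cebpa, 0.70 with Dhx58, 0.69 with Gfer and 0.68 with Lpin2, and for Klf4, 0.73 with Manba, 0.70 with Npr1 and 0.69 with Jak1, were lower. Among the members themselves the highest were Cebpd with Ebf2 (0.71) and Zfp423 with Ebf1 (0.66), and the lowest was Pparg with Ebf2 (−0.55).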

How the data were processed

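Per the labels and the study's methods, the authors mapped Smart-seq2 reads to mm10 with STAR, quantified genes with Salmon, imported the values with tximport and removed cells by reads, genes, mitochondrial and spike-in shares and signs of contamination; tool versions are not given in the sources used here. Values deposited by the authors are integer read counts for each gene in each cell, and 72 spike-in rows were left out. No doublet caller was run. Cells were clustered in Seurat 5.3.0 (3000 variable genes, 14 components, resolution 1.1), leaving out the 8 genes and 4 gene lists, and the classes were named from fixed markers. A cluster led by adipocyte genes (114 cells) and 2 with high mitochondrial shares (52 and 19 cells) stayed unnamed, by limits set after the clusters were seen, as did 22 lymphatic EC-like cells stay out of every comparison.

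Counts were summed per mouse and class (at least 10 cells) and tested with edgeR 4.0.16 (quasi-likelihood, TMM factors, summed count above 600 in at least 2 sums, Benjamini-Hochberg over all genes, called at 0.05, between the sexes also above 2.6-fold), with the mouse as a block where a mouse gave each sum, since both sums then come from 1 animal or pool. DESeq2 1.42.0 was an alternative. Some cells of a mouse share plates. The p-values measure the spread between mouse ids, 7 for the subtypes and for the sexes in ASC-like cells. They rest on 5 mouse ids where EC-like cells were tested, and on 2 for mural-like and for macrophage-like cells. All 8 genes were named in every comparison, and of each list at most the 3 called genes with the largest change with their values. The members and lists were chosen with earlier results of these data known. Levels compared between genes are per kilobase of exon. The fits were checked on simulated data.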

Additional observations from a re-analysis of the deposited data

Results flagged for a closer look

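In 48 groups of 4 to 7 mice, 5 had a mouse apart from the others, and chance alone flags about 1 in 20 groups. Cebpa in ASC1b-like cells was at 46.7 CPM in mouse 3, with the next mouse at 19.8. Cebpb in EC-like cells was at 28.1 CPM in mouse 2, with the next at 8.70. Ebf2 in EC-like cells was at 1.87 CPM in mouse 6/7, with the next at 0.490. Klf4 in ASC1a-like cells was at 229 CPM in mouse 3, with the next at 155. Ebf2 in female ASC-like cells was lowest in mouse 5, at 117 CPM, with the next at 196.

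Outside the classes compared, 114 cells of 5 mice formed a cluster led by adipocyte genes, including Fabp4, Car3, Cfd and Adipoq, with all 4 EC markers. There Pparg was at 319 CPM (a read in 68.4% of cells) and Cebpa at 136 CPM (16.7%), against 350.2 and 19.1 CPM over all EC-like cells and 28.2 and 17.2 CPM over all ASC-like cells. Their median summed adipocyte list was 4347 CPM, beside 1354 in EC-like and 14.4 in ASC-like cells. In 22 lymphatic EC-like cells of 4 mice, Pparg was at 96.6 CPM, with a read in 8 cells.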

How the results depend on the processing

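Over 60 results for members and 966 alternatives, 919 kept their side of the threshold, 34 lost the call and 13 gained it. Where either fit was called, 0 turned direction. Results not called could change sign, as Cebpa did between ASC-like and EC-like cells (log2 fold changes from −0.51 to 0.79). Counts of genes called moved more than those of members, and the causes were not tested. ASC-like against mural-like cells gave 0 genes, 78 with library totals, 1395 in DESeq2 and 1018 in edgeR's likelihood ratio test. Without mouse as the replicate block, the counts were 254 against 1052 with the block (ASC1a-like against ASC2-like), 162 against 885 (ASC1b-like against ASC2-like) and 6 against 125 (ASC1a-like against ASC1b-like). Pparg was then still called between ASC1a-like and ASC2-like cells, and the other subtype calls of members were lost.

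Leaving out 1 mouse gave 589 to 838 genes for ASC1b-like against ASC2-like cells (lowest without mouse 2). ASC1a-like against ASC1b-like cells gave 59 to 132 genes without 1 mouse (69 without mouse 4, 68 without mouse 2 and 59 without mouse 6/7), 392 in DESeq2, 295 by likelihood ratio, 68 with a minimum of 10 counts, 68 with no filter and 34 with ASC1a scored without G0s2. Male against female ASC-like cells gave 265 genes, 92 to 345 without 1 mouse, 592 in DESeq2, 551 by likelihood ratio, 170 with no filter, 117 in ASC1a-like, 117 in ASC1b-like and 61 in ASC2-like cells alone, and 91 on plates without a DPP4 or CD31-positive sort. Male against female EC-like cells gave 4 genes, 0 to 713 without 1 mouse (713 without mouse 1), 1 with RLE factors, 111 in DESeq2, 59 by likelihood ratio, and 0 with a minimum of 10 counts or no filter. Leaving out a mouse was not run for mural-like and macrophage-like cells, since 1 mouse would remain. Depth limits the sparse genes. At 5 reads per cell instead of 1, 26 of 52 detection and co-detection values moved by more than their SD over mice. Without thinning, 15 of 24 detection values did.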

Other observations

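In the 52 cells of 2 female mice whose mitochondrial share kept them unnamed, with all 4 ASC markers, Ebf2 was at 219.9 CPM, Cebpd at 308 CPM and Ebf1 at 167 CPM, while Pparg (3.82 CPM) was read in 6 cells and Cebpa (2.83 CPM) in 4. In the 22 lymphatic EC-like cells, Cebpd was at 435 CPM and Klf4 at 199 CPM, and Ebf2 had a single read. In 19 cells of 1 male mouse with epithelial markers, Pparg had 0 reads in 19 cells, and Klf4 was at 86.6 CPM.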
